A study of Rattus norvegicus with 174 samples.

Results

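Genes for potassium, sodium and calcium channels were followed in the tissues of rats that had inhaled phosphine (PH3), a toxic fumigant gas. The genes were chosen by symbol: every gene of the array platform whose symbol starts with Kcn, Cacn or Scn and that has a probe set of 1 gene, with the brightest probe set by mean over all arrays where there were several. Of 13438 genes measured this way, 115 were channel genes. In each tissue only genes with a mean log2 signal over 5 in its air arrays were described, which left 22 channel genes in heart, 46 in brain, 15 in kidney, 3 in liver and 17 in lung. Heart and brain together held 57 genes, and 11 of them passed in both tissues. The rule reads only symbols, mean signals and levels in air rats.

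The animals were adult male Sprague-Dawley rats, an outbred stock, of 300 to 400 g. In PH3 groups rats breathed 660 ppm for 32.2 min in a whole-body chamber, which makes 21252 ppm x min (0.91 of the LCt50, the product of concentration and time at which the median animal dies); in air groups they breathed air with 0 ppm for the same 32.2 min. Tissues were taken 1, 3, 6 and 24 h later under ketamine and xylazine anaesthesia with exsanguination, in PH3 and air rats alike. Each group held 4 rats, except the 6 h air groups with 2, so that every solid tissue had 16 PH3 and 14 air arrays from the same 30 rats. Each rat gave tissue at 1 time, so none was followed over time.

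Ion channels are membrane proteins that let potassium, sodium or calcium cross along their gradients, and each is built from a pore subunit with partner subunits that set its gating and its place in the membrane. In heart muscle, sodium channels start the action potential, L-type calcium channels carry its plateau and couple it to contraction, and several potassium currents bring the membrane back to rest. In neurons the same families set firing and transmitter release, and in kidney, lung and liver they serve epithelial salt transport and vessel tone. ATP-sensitive potassium channels open when cell ATP falls, and phosphine is known as an inhibitor of mitochondrial respiration.

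Values are log2 signals per probe set. A difference of 1 is a 2-fold difference. Changes are log2 PH3 minus air at the same time, with the SE of a limma fit over all arrays of the tissue, and padj stands for their p-values after Benjamini-Hochberg adjustment over the 13438 genes. A gene was called at a padj under 0.05. Each array is of 1 rat, so the spread is that between animals.

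Over all tissues and times, 12 channel genes were called, in 15 pairs of a gene and a comparison. Of the 15, 14 lay in kidney, liver and lung, where 8.54%, 4.09% and 15.4% of all genes were called at 1 or more times. In heart only Kcnj11 was called, lower at 3 h. That call was lost in 12 of 17 runs with other settings or fewer rats, among them those without 1 array that held liver transcripts. In brain no channel gene was called at any time. In kidney Kcnk5 rose while Kcnj8 and Kcnj12 fell, in liver Kcnj8 fell to a mean of 4.62 in PH3 rats, against 6.18 in air rats, and in lung 3 channel genes rose and 5 fell at 3 h, 1 of them at 1 h too.

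The tissues carried the markers of their labels, with exceptions on single arrays. Cardiomyocyte markers (8 of 8 measured genes over 5 in air rats, mean 12.4) stood in heart, neuron markers (10 of 10, mean 10.2) in brain, proximal tubule markers (8 of 8, mean 10.99) in kidney, hepatocyte markers (12 of 12, mean 12.8) in liver and alveolar markers (8 of 8, mean 12.3) in lung. On 7 arrays of heart, kidney, liver and lung, markers that belong to another organ or to skeletal muscle exceeded the tissue's median by 4 log2 or more. In heart these were PH3 Rat729 at 3 h and PH3 Rat741 at 24 h with hepatocyte markers (12.36 and 11.99) and PH3 Rat749 at 24 h with alveolar markers (9.72). The others were an air kidney at 1 h and a PH3 lung at 1 h with hepatocyte markers, a PH3 liver at 24 h with tubule markers and an air lung at 3 h with skeletal muscle markers. No brain array was among them. Under that cut, hepatocyte markers exceeded the heart median by 3.56 log2 in PH3 Rat712 at 1 h and 3.72 in PH3 Rat760 at 6 h. In both air hearts at 6 h, Rat762 and Rat763, they did so by 2.76 and 2.90. These hearts were kept where arrays with transcripts of another organ were dropped. In whole tissue, fewer cells of a type and less RNA per cell cannot be told apart.

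The level of 5 was a cut through a continuous range. Just above it in heart stood Kcnd3 (5.19), Kcns3 (5.23) and Kcnn1 (5.28) and just below it Cacna1h (4.95), Scn1a (4.85) and Kcnmb4 (4.70). In brain the nearest above were Kcnj16 (5.09), Cacnb1 (5.10) and Kcnab3 (5.15) and the nearest below Kcnk2 (4.99), Kcnc4 (4.90) and Cacna1c (4.87). Of a panel of 24 genes known for the cardiac action potential, 21 were measured and 15 passed the level in heart. Of a panel of 30 neuronal channel genes, 26 were measured and 18 passed in brain.

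Between air rats the heart genes varied with an SD from 0.0986 for Kcnj11 to 0.652 for Kcna5, with a median of 0.245 over the 22 genes (n = 14). In brain the SD over 14 air rats ran from 0.0882 for Kcnip4 to 0.526 for Kcnip3, with a median of 0.272. Kcnj11 had the least spread between air rats of the 22 heart genes.

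**Figure D1:**
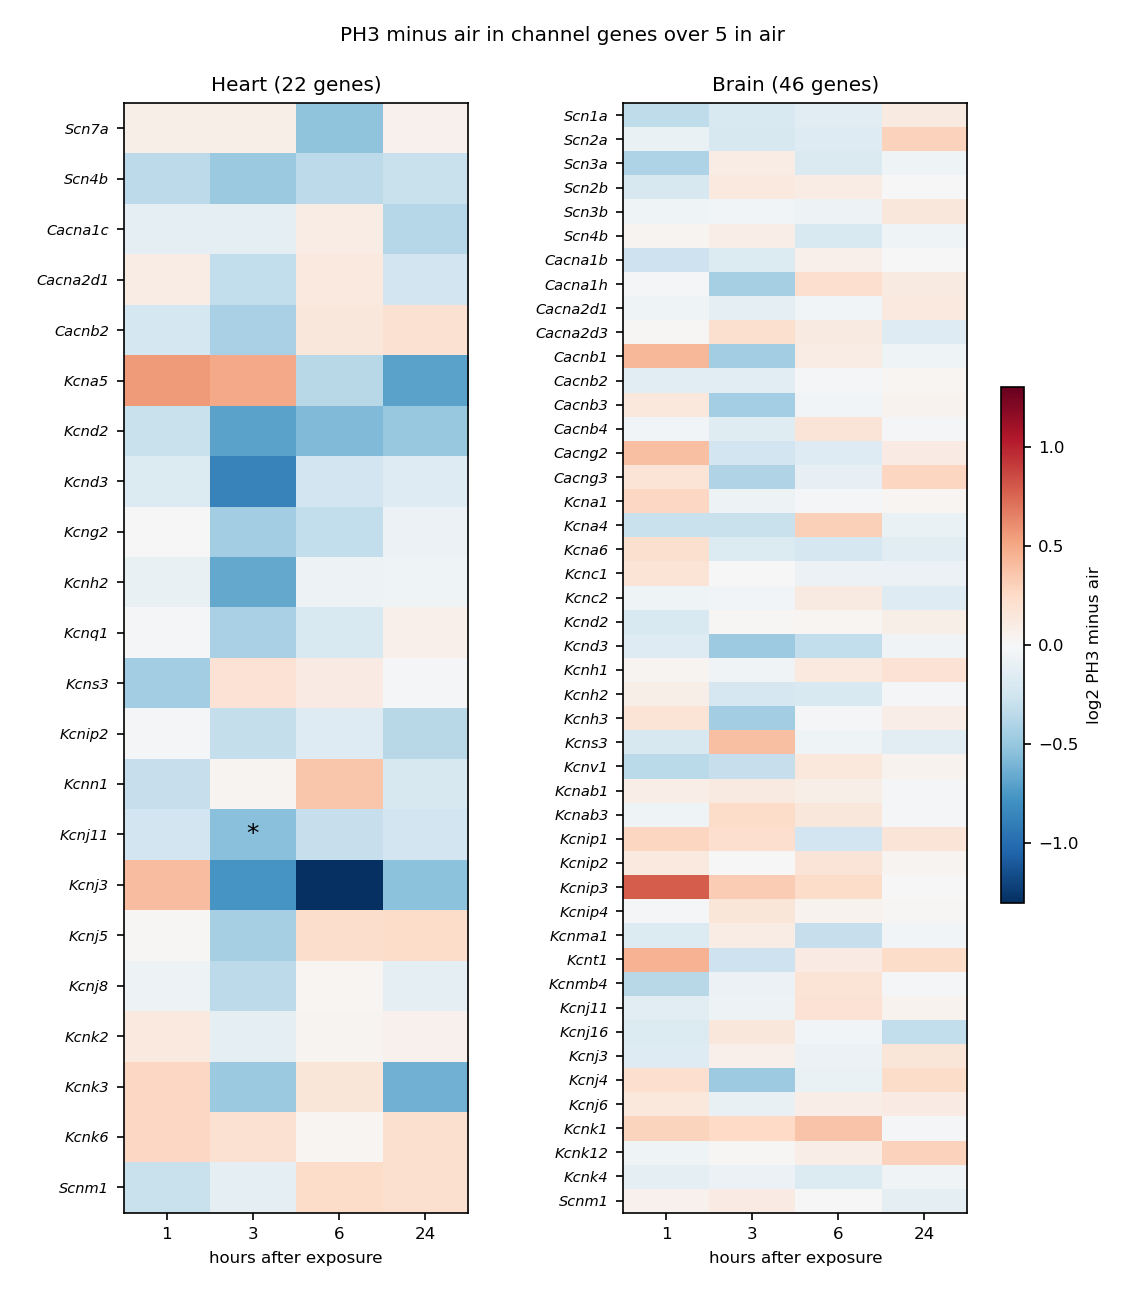
Log2 PH3 minus air of the channel genes in heart (22 genes) and brain (46 genes), one row per gene and one column per time (1, 3, 6 and 24 h), with colour for the difference and an asterisk for a padj under 0.05. The only asterisk is at Kcnj11 in heart at 3 h, and the 3 h column of heart is negative for 17 of 22 genes.

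In heart at 1 h no channel gene was called, where limma called 0.99% of all genes higher and 0.342% lower. None of the 22 had an unadjusted p under 0.05, and their median difference was -0.05. The 3 genes with the lowest p were Kcnk6, a tandem pore background potassium channel (6.00 ± 0.225 in PH3 and 5.74 ± 0.221 in air rats, SD, n = 4 each), Kcns3, a silent subunit that modifies other potassium channels (4.55 ± 0.397 in PH3 and 4.9998 ± 0.405 in air rats), and Kcnj11. Their padj were 0.540, 0.565 and 0.621. The 95% intervals of 20 of the 22 genes lay within a 2-fold difference, the exceptions being Kcna5 and Kcnj3. At this time 2 of 8 endothelial markers were higher in PH3 hearts, and their part in these values was not tested.

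At 3 h the heart channel genes lay lower in PH3 rats as a set of values, but 1 was called. Of the 22, 17 had a negative difference, the median was -0.38, and 11 of 22 had an unadjusted p under 0.05, against 18.0% of all genes and 23.9% of genes over 5. The median over all genes was -0.02, and -0.08 over genes over 5. The call was a fall (1 of 22), where 2.28% of all genes were called lower and 1.06% higher. Among genes over 5, 3.53% were called lower. By family, all 4 inward rectifiers were negative (median -0.49, 1 called), as were 5 of 7 voltage-gated potassium pore genes (median -0.46, 0 called) and 2 of 3 tandem pore genes (median -0.12, 0 called). The 22 differences ran from -0.87 (Kcnd3) to 0.50 (Kcna5). Without the 3 heart arrays that held transcripts of another organ, of which Rat729 is the one at 3 h, the median was -0.13, 14 of 22 were negative, 3 had an unadjusted p under 0.05 and 0 were called. Values given below as without Rat729 are of that fit.

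Kcnj11, the pore subunit of the ATP-sensitive potassium channel of heart muscle, was the gene called. At 3 h it read 8.80, 7.80, 8.64 and 8.82 in PH3 hearts, against 8.92, 9.21, 8.97 and 9.14 in air hearts. Every PH3 rat was below every air rat, and the lowest, 7.80, was Rat729. The difference was -0.54 ± 0.15 (padj = 0.0441), so that the signal fell by 31.5%, and the gene's other probe sets gave -0.44 and -0.65. Without Rat729 it was -0.31 with padj = 0.107.

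The same gene was lower by less at the other times, without being called. At 1 h it read 8.91, 8.78, 9.01 and 9.05 in PH3 hearts, against 9.22, 9.13, 9.21 and 9.18 in air hearts, groups that did not overlap (-0.25, padj = 0.621). At 6 h the 4 PH3 hearts read 9.06, 9.05, 8.70 and 8.80 and the 2 air hearts 9.16 and 9.23, again apart (-0.30, padj = 0.674). At 24 h the PH3 hearts read 8.75, 8.99, 9.19 and 8.91 and the air hearts 9.24, 9.21, 9.13 and 9.25, and 1 PH3 rat overlapped (-0.25, padj = 0.732, and -0.12 without Rat741 and Rat749). With the arrays of Rat729, Rat741 and Rat749 included, 15 of 16 PH3 hearts lay below the lowest air heart of their own time. The count was 14 of 16 for Kcnd2, 13 of 16 for Kcnip2 and 9 of 16 for Kcng2. Kcng2, a silent potassium subunit, was named after its values were seen. The other heart channel genes had fewer, down to 0 for Kcnk6. No such count was made over all genes, and at 6 h only 2 air hearts set the bound. Of 7942 genes over 5 in heart, 3823, 4982, 4795 and 4438 had a negative difference at 1, 3, 6 and 24 h.

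Kcnj8, the pore of the ATP-sensitive channel of vascular smooth muscle, was not called in heart. At 3 h it read 7.85, 7.15, 7.31 and 7.10 in PH3 hearts, against 7.75, 7.43, 7.89 and 7.71 in air hearts. The highest PH3 rat lay among the air rats, and the difference was -0.34 ± 0.13 (padj = 0.1699). The sulfonylurea receptors that complete these channels were not called either: at 3 h Abcc9 differed by -0.27 ± 0.12 (padj = 0.218) and Abcc8 by -0.04 ± 0.11 (padj = 0.872).

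Kcnj3 and Kcnj5 encode the acetylcholine-gated potassium channel of the atria, and their values stand here beside the atrial markers of the arrays. Kcnj3 at 3 h read 5.95, 3.65, 5.47 and 5.48 in PH3 hearts, against 6.09, 5.54, 5.65 and 6.29 in air hearts, and its lowest array was Rat729. The mean of 5 atrial markers on that array was 7.92, while the other PH3 hearts had 11.35 to 11.56 and the air hearts 11.01 to 11.24. At 6 h Kcnj3 read 3.98, 5.54, 5.31 and 4.67 in PH3 hearts, against 6.16 and 6.18 in air hearts, with no overlap (-1.29 ± 0.45, padj = 0.264). The PH3 heart at 3.98, Rat758, had atrial markers at 9.01 and the one at 4.67, Rat789, at 10.31, against 11.32 and 11.29 in the other PH3 hearts and 11.34 and 11.38 in the air hearts. Without the 2 hearts at least 2 log2 below the heart median in atrial markers, a setting chosen after these levels were seen, the 6 h difference was -0.995 (padj = 0.181). Kcnj5 differed by -0.43 ± 0.26 at 3 h, with PH3 hearts at 6.61, 5.28, 6.41 and 6.84 and air hearts at 6.72, 6.81, 6.54 and 6.79, by 0.23 ± 0.32 at 6 h and by 0.24 ± 0.26 at 24 h. Its positive differences at 6 and 24 h stood beside atrial markers with median differences of -1.02 and -0.42. Without Rat729 Kcnj3 differed by -0.27 at 3 h. The part of the atrial share of the samples in these values was not tested.

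**Figure D2:**
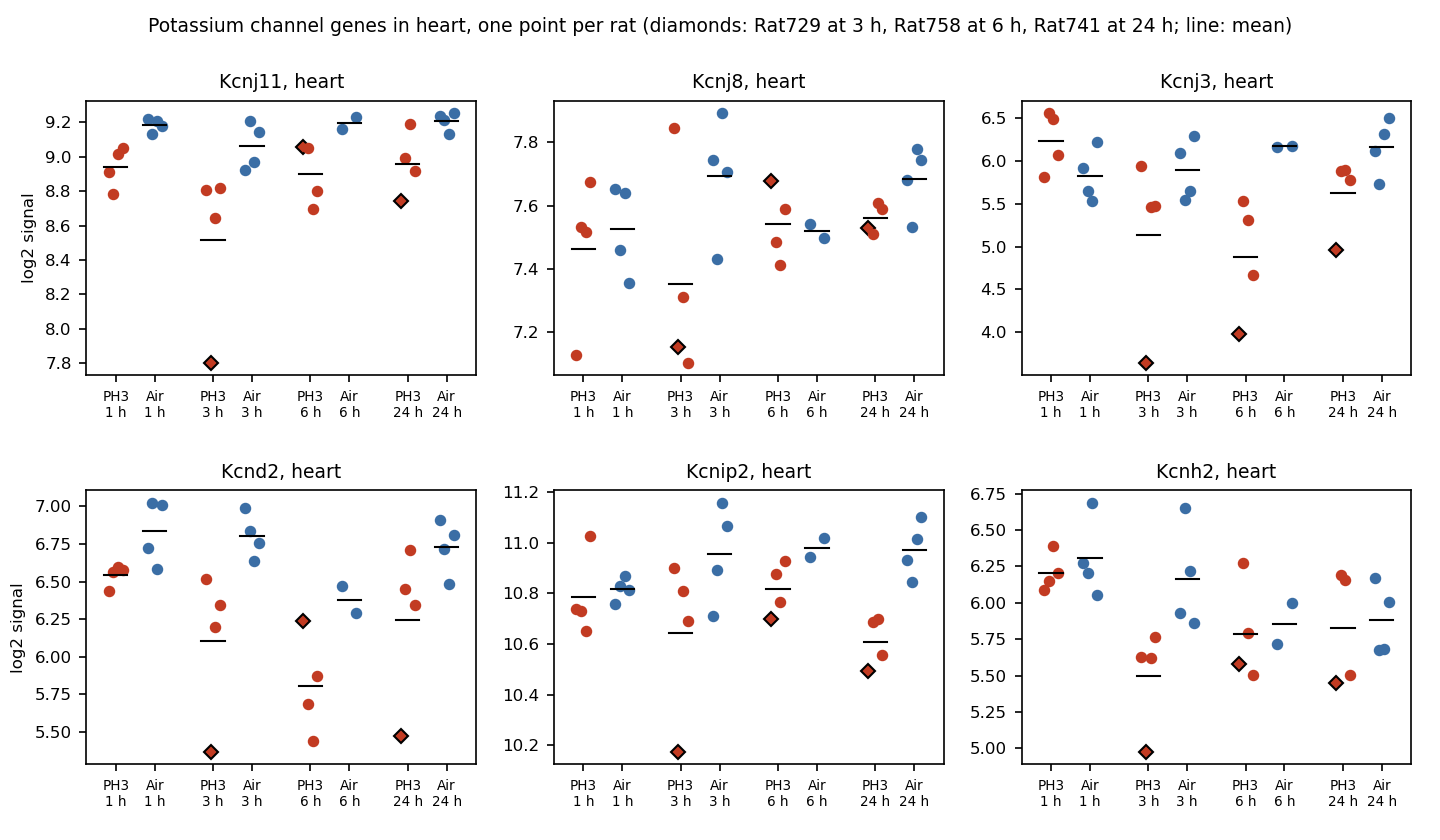
Log2 signal of Kcnj11, Kcnj8, Kcnj3, Kcnd2, Kcnip2 and Kcnh2 in heart, one point per rat with PH3 left of air at each time and a line at the mean; diamonds mark Rat729 (3 h), Rat758 (6 h) and Rat741 (24 h). The Kcnj11 groups do not overlap at 1, 3 and 6 h, and Rat729 is the lowest 3 h point in 5 of the 6 panels.

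The transient outward potassium current, which gives the early repolarization of rat heart muscle, is carried by Kcnd2 and Kcnd3 with the cytosolic partner Kcnip2. Kcnd2 at 3 h read 6.52, 5.37, 6.19 and 6.35 in PH3 hearts, against 6.99, 6.83, 6.63 and 6.75 in air hearts, with no overlap (-0.70 ± 0.22, padj = 0.0856). At 6 h the PH3 hearts read 6.24, 5.69, 5.44 and 5.87 and the air hearts 6.47 and 6.29, again apart (-0.57 ± 0.27, padj = 0.513). At 1 and 24 h its groups overlapped, with differences of -0.29 and -0.49, and the 24 h difference was -0.15 without Rat741 and Rat749. Without Rat729 the 3 h difference was -0.45 (padj = 0.136).

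Kcnd3 differed by -0.87 ± 0.32 at 3 h (padj = 0.146), from PH3 hearts at 5.54, 3.71, 4.95 and 4.44 and air hearts at 5.47, 6.12, 4.85 and 5.69, which overlapped. Kcnip2 was the gene with the lowest p at 24 h, where the PH3 hearts read 10.49, 10.68, 10.70 and 10.56, against 10.93, 10.84, 11.02 and 11.10 in air hearts. All PH3 values were below all air values (-0.36 ± 0.12, padj = 0.398). Its difference without the arrays with transcripts of another organ was -0.28 (padj = 0.513).

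The delayed rectifier genes were not called. Kcnh2, the pore of the rapid delayed rectifier, read 5.63, 4.98, 5.62 and 5.76 in PH3 hearts at 3 h, against 5.93, 6.65, 6.22 and 5.86 in air hearts. Its groups did not overlap (-0.67 ± 0.21, padj = 0.0845), and without Rat729 the difference was -0.49 (padj = 0.202). At 1, 6 and 24 h it differed by -0.10, -0.07 and -0.06. Kcnq1, the pore of the slow delayed rectifier, differed by -0.42 ± 0.20 at 3 h with Rat729 at 5.70 and the other PH3 hearts at 7.04 to 7.22, inside the air range of 7.02 to 7.37, and by -0.06 without that array. Kcna5, of the ultrarapid delayed rectifier, differed by 0.50 ± 0.42 at 3 h and was the most variable gene between air hearts. Kcnk3, an acid-sensitive background channel, differed by -0.48 ± 0.29 at 3 h and -0.62 ± 0.29 at 24 h.

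No calcium or sodium channel gene of heart was called. Cacna1c, the L-type pore, read 7.57, 6.57, 7.45 and 7.40 in PH3 hearts at 3 h, against 7.25, 7.62, 7.27 and 7.35 in air hearts, so that 3 PH3 rats lay within the air range (-0.12 ± 0.16, padj = 0.716). At 24 h it read 7.23, 7.49, 7.38 and 6.92 in PH3 hearts, against 7.92, 7.497, 7.55 and 7.53 in air hearts, which did not overlap (-0.37 ± 0.16, padj = 0.572, and -0.19 without Rat741 and Rat749). The auxiliary subunits Cacna2d1 and Cacnb2, which bring the pore to the membrane and tune its gating, differed at 3 h by -0.32 ± 0.15 (padj = 0.246) and -0.42 ± 0.16 (padj = 0.166). Scn4b, a beta subunit of the sodium channel, differed by -0.48 ± 0.22 (padj = 0.258). Without Rat729 the 3 were at -0.12, -0.20 and -0.20, and Cacna1c was at 0.10.

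**Figure D3:**
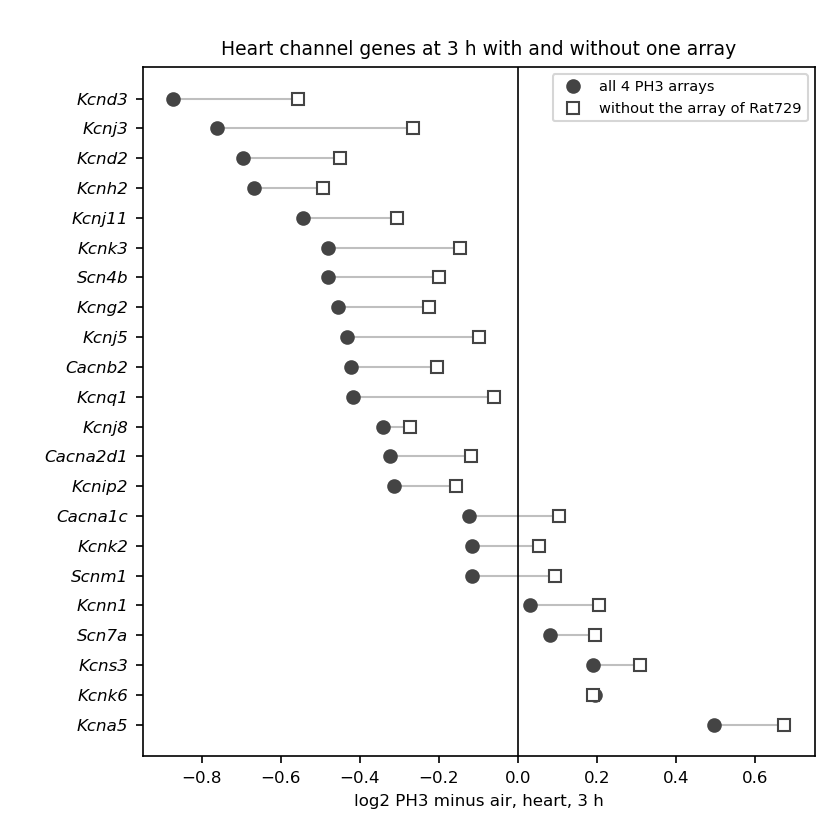
Log2 PH3 minus air of the 22 heart channel genes at 3 h, with all 4 PH3 arrays (filled circles) and without the array of Rat729 (open squares), genes ordered by the first value. The squares of genes on the negative side lie nearer to 0 than their circles, and the 4 most negative squares are those of Kcnd3, Kcnh2, Kcnd2 and Kcnj11.

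The Rat729 heart array had hepatocyte markers at 12.36, where the other PH3 hearts had 3.63 to 4.40 and the air hearts 3.71 to 4.28, and cardiomyocyte markers at 11.89, where the other PH3 hearts had 12.35 to 12.40 and the air hearts 12.40 to 12.49. Macrophage markers were higher in PH3 hearts at 3 h for 4 of 9 genes, at list means from 6.80 to 7.62 in PH3 and from 6.51 to 6.76 in air hearts. The 3' minus 5' difference of control transcripts, which is larger in less intact RNA, was 0.630 in PH3 and 0.445 in air hearts at 3 h (two-sided exact permutation p = 0.0857). The part of these 3 measures in the channel values was not tested.

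At 6 and 24 h no heart channel gene was called, where limma called 0.186% of all genes higher and 0.164% lower at 6 h, and 0.0744% higher and 0.00744% lower at 24 h. At 6 h the median over the 22 genes was -0.02 and 3 had an unadjusted p under 0.05, which were Kcnj3, Kcnd2 and Scn7a, a sodium-sensing relative of the sodium channels (7.26 ± 0.32 in 4 PH3 and 7.78 ± 0.05 in 2 air hearts, padj = 0.394). At 24 h the median was -0.15, 15 of 22 were negative and 4 had an unadjusted p under 0.05. Without the arrays of Rat741 and Rat749 the 24 h median was -0.07. The atrial markers at 24 h ran from 10.59 to 11.08 in PH3 hearts and from 11.29 to 11.46 in air hearts. At 6 and 24 h the 95% intervals of 17 and 19 of the 22 genes lay within a 2-fold difference, and at 3 h those of 16.

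In brain no channel gene was called at any time. limma called 0.112% of all genes higher and 0.0372% lower at 1 h, 0.365% higher and 0.141% lower at 3 h, 0% higher and 0% lower at 6 h and 0% higher and 0% lower at 24 h. Of the 46 channel genes, 7 had an unadjusted p under 0.05 at 1 h, 6 at 3 h, 1 at 6 h and 0 at 24 h, and their median differences were -0.03, -0.06, -0.01 and 0.01. The 46 differences ran from -0.40 to 0.79 at 1 h, from -0.47 to 0.39 at 3 h, from -0.32 to 0.37 at 6 h and from -0.32 to 0.30 at 24 h. Except for Kcnip3 at 1 h, all 95% intervals lay within a 2-fold difference at each of the 4 times, and at 24 h they lay between -0.73 and 0.73.

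At 1 h the lowest p was that of Kcnip3, a partner of transient outward channels that also acts as a calcium-regulated transcription repressor. It read 6.26, 6.57, 6.07 and 6.13 in PH3 brains, against 5.94, 6.14, 5.79 and 4.004 in air brains, so that the ranges overlapped and 1 air rat stood low (0.79 ± 0.28, padj = 0.275). Kcnmb4, the neuronal beta subunit of the large-conductance calcium-activated channel, read 8.20, 8.71, 8.42 and 8.44 in PH3 brains, against 8.77, 8.85, 8.69 and 8.90 in air brains (-0.36 ± 0.15, padj = 0.360). Scn3a, a sodium channel pore best known from the developing brain, differed by -0.40 ± 0.18 (padj = 0.411), with PH3 brains at 6.22 to 7.29 and air brains at 7.18 to 7.45.

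At 3 h the lowest p was that of Cacna1h, a pore of T-type calcium channels, which open at low voltage. It read 5.46, 5.34, 5.08 and 5.24 in PH3 brains, against 5.43, 5.75, 5.87 and 5.78 in air brains, with 1 PH3 rat inside the air range (-0.43 ± 0.12, padj = 0.151). Kcnd3 read 7.20, 6.99, 7.19 and 7.22 in PH3 brains, against 7.35, 7.79, 8.16 and 7.20 in air brains (-0.47 ± 0.15, padj = 0.269). Kcnj4, an inward rectifier of forebrain neurons, differed by -0.47 ± 0.17 (padj = 0.388). All 4 calcium channel beta subunit genes had a negative difference (-0.45 to -0.13), as had 9 of 12 voltage-gated potassium pore genes, and none of these was called. Positive were 2 of 2 Kcnab genes and 3 of 4 Kcnip genes, as were 2 of 3 sodium channel beta subunit genes and 2 of 3 tandem pore genes. Of all 46 channel genes 28 were negative, where 3808 of 8158 genes over 5 were. At this time the endothelial markers had a median difference of -0.39 with 1 of 8 called lower and macrophage markers 0.16 with 1 of 9 higher. Astrocyte marker means were 10.14 to 10.18 in PH3 and 9.97 to 10.09 in air brains with none called, and the 3' minus 5' difference of control transcripts was 0.359 in PH3 and 0.514 in air brains (two-sided exact permutation p = 0.0286, the smallest that 4 against 4 rats can give, padj = 0.286 over 20 such tests). Their part was not tested.

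Of the sodium channel pores of brain, Scn1a, Scn2a and Scn3a all had negative differences at 1 h (median -0.33), none called. Scn1a differed by -0.33 ± 0.18, -0.20 ± 0.18, -0.14 ± 0.22 and 0.11 ± 0.18 at 1, 3, 6 and 24 h, and Scn2a by -0.09 ± 0.15, -0.20 ± 0.15, -0.17 ± 0.18 and 0.30 ± 0.15. Scn2a had the lowest p at 24 h, where it read 8.77, 9.25, 8.94 and 9.29 in PH3 brains, against 9.13, 8.90, 8.71 and 8.32 in air brains (padj = 0.9997). Those groups overlapped over most of their range.

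Of the potassium channels, Kcna1, which limits repetitive firing, differed by 0.27 ± 0.12, -0.06 ± 0.12, -0.03 ± 0.15 and 0.03 ± 0.12 at 1, 3, 6 and 24 h. Kcnc1, of fast-spiking neurons, differed by 0.17 ± 0.15, 0.00 ± 0.15, -0.08 ± 0.19 and -0.07 ± 0.15. Kcnma1, the large-conductance calcium-activated pore, differed by -0.18 ± 0.18, 0.10 ± 0.18, -0.30 ± 0.23 and -0.03 ± 0.18. Kcnk1, a tandem pore channel, had the lowest p at 6 h, where it read 7.24, 7.47, 7.35 and 7.36 in PH3 brains, against 6.96 and 7.01 in air brains. All 4 PH3 rats were above both air rats (0.37 ± 0.17, padj = 0.858).

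Among calcium channel genes of brain, Cacna1b, the N-type pore of nerve terminals, differed by -0.27 ± 0.16, -0.18 ± 0.16, 0.07 ± 0.19 and -0.01 ± 0.16. Cacna2d1, the subunit bound by gabapentin, differed by -0.05 ± 0.09, -0.13 ± 0.09, -0.03 ± 0.12 and 0.12 ± 0.09. Cacng2 and Cacng3, which carry AMPA glutamate receptors to the synapse, differed by 0.39 ± 0.19 and 0.17 ± 0.15 at 1 h and by -0.25 ± 0.19 and -0.39 ± 0.15 at 3 h. At 24 h Cacng3 (0.28 ± 0.15) and Kcnk12, a tandem pore channel (0.30 ± 0.16), followed Scn2a in order of p, both with padj = 0.9997. None of these differences was called.

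The effect of PH3 was not shown to differ between times for any channel gene of heart or brain. limma's F test over the 4 times called 0.424% of all genes in heart and 0.0893% in brain. The lowest padj of a channel gene was 0.423 in heart (Kcnj3) and 0.386 in brain (Cacna1h). At an unadjusted p under 0.05 there were 2 of 22 in heart and 4 of 46 in brain.

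The 11 channel genes over 5 in both tissues were Cacna2d1, Cacnb2, Kcnd2, Kcnd3, Kcnh2, Kcnip2, Kcnj11, Kcnj3, Kcns3, Scn4b and Scnm1, the last of which encodes a splicing factor despite its symbol. In air rats Kcnip2 averaged 10.9 in heart and 7.67 in brain, Kcnj11 9.16 and 6.96, and Kcnd2 6.73 and 9.49. Whether the tissues were normalized together is not given in the sources used here, so these levels are set side by side without a test.

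None of the 11 had an effect that was called as different between heart and brain. This test called 0.536% of all genes at 1 h, 1.16% at 3 h, 0.193% at 6 h and 0.0744% at 24 h. The lowest padj were 0.605 (Scnm1, 1 h), 0.210 (Kcnj11, 3 h), 0.460 (Kcnj3, 6 h) and 0.677 (Kcnip2, 24 h), and 0, 3, 2 and 3 of the 11 had an unadjusted p under 0.05. For Kcnj11 at 3 h the effect was -0.54 in heart and -0.06 in brain, a difference of -0.48 ± 0.19, and for Kcnd2 it was -0.70 in heart and 0.02 in brain, a difference of -0.71 ± 0.28 (padj = 0.213).

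In kidney 3 of 15 channel genes were called at 1 or more times, where 8.54% of all genes were. Kcnk5, an alkaline-activated background potassium channel that in the mouse supports bicarbonate recovery by the proximal tubule, rose at 1 and 3 h. At 1 h it read 7.28, 7.77, 7.32 and 7.91 in PH3 kidneys, against 6.81, 6.57, 6.76 and 7.17 in air kidneys (0.74 ± 0.15, padj = 0.00695). At 3 h it read 7.16, 7.81, 7.42 and 7.48 in PH3 kidneys, against 6.60, 6.83, 6.45 and 6.71 in air kidneys (0.82 ± 0.15, padj = 0.00143), a signal 1.76 times that of air rats. PH3 and air rats did not overlap at either time. With only the 2 groups in the fit, padj at 1 h was 0.149.

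At 6 h the PH3 kidneys read 6.95, 6.70, 7.28 and 7.004 for Kcnk5 and the air kidneys 5.98 and 6.40 (0.79 ± 0.19, padj = 0.0670). At 24 h they read 6.54, 6.65, 6.55 and 6.40 in PH3 rats, against 6.32, 6.00, 6.30 and 6.21 in air rats (0.33 ± 0.15, padj = 0.895). All 16 PH3 kidneys were thus above the highest air kidney of their own time, while the later differences were not called. No such count was made over all genes, and at 6 h only 2 air kidneys set the bound. Kcnk5 was called at 1 and 3 h, so its separation at those times is no further evidence. The 1 h comparison had 1 channel gene of 15 called higher and 0 lower, where 2.12% of all genes were called higher and 0.997% lower. At 3 h 1 was higher and 2 lower, where 2.86% were higher and 3.53% lower.

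Kcnj8 fell in kidney at 3 h, with 5.19, 4.94, 4.95 and 4.82 in PH3 rats, against 5.44, 5.83, 5.75 and 5.80 in air rats (-0.73 ± 0.14, padj = 0.00237). The groups stood apart at 3 h and overlapped at 1 h (0.22 ± 0.14), 6 h (0.03 ± 0.18) and 24 h (0.16 ± 0.14). Kcnj12, a strong inward rectifier that holds the resting potential, read 4.95, 4.61, 4.99 and 5.11 in PH3 kidneys at 3 h, against 5.23, 5.54, 5.62 and 5.52 in air kidneys. It also did not overlap (-0.56 ± 0.17, padj = 0.0460). With the air rats of all times pooled neither was called (padj = 0.1101 for Kcnj8 and 0.178 for Kcnj12), and Kcnj12 was not called without Rat728, Rat729, Rat730, Rat733, Rat738 or Rat739 either (padj from 0.0669 to 0.165). At 1 h 1 of 8 pericyte and smooth muscle markers of kidney was higher (median 0.21). The endothelial markers of kidney at 3 h had a median difference of 0.04 with 1 of 8 higher, macrophage markers 0.08 with 2 of 9 higher, and pericyte and smooth muscle markers -0.08 with 0 of 8 called.

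The sodium channel subunits of the collecting duct were not called in kidney. At 3 h Scnn1a differed by 0.53 (padj = 0.178), Scnn1b by -0.10 and Scnn1g by 0.02. Kcnj1, the channel that secretes potassium in the distal nephron, differed by -0.24 (padj = 0.178) and Kcnj15, of tubular basolateral membranes, by 0.54 at 1 h (padj = 0.0733). These 5 were named after their values were seen.

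In liver 1 of 3 channel genes was called, where 4.09% of all genes were called at 1 or more times, and its change was the largest of the 15 called. Kcnj8 at 3 h read 4.59, 4.73, 4.49 and 4.69 in PH3 livers, against 6.34, 5.84, 6.39 and 6.13 in air livers. The groups lay over 1 log2 apart, and the difference was -1.55 ± 0.20 (padj = 5.0e-05), so that the signal fell by 65.9%. At this time 1.99% of all genes were called higher and 1.87% lower. At 1 h it read 5.32, 5.59, 5.35 and 4.98 in PH3 livers, against 5.83, 6.24, 6.08 and 6.04 in air livers, without overlap (-0.74 ± 0.20, padj = 0.160). This 1 h difference was called with quantile normalization (padj = 0.0349), array median centring (0.0414), array quality weights (0.0151) and pooled air (0.0207). At 6 h it read 5.84, 5.82, 5.32 and 5.01 in PH3 livers, against 6.02 and 6.16 in air livers, again apart (-0.59 ± 0.25, padj = 0.461). At 24 h the difference was -0.04 ± 0.20.

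Kcnj8 is known from pericytes, smooth muscle and endothelium. In liver at 3 h pericyte and smooth muscle markers had a median difference of -0.01 (list means 5.08 to 5.39 in PH3 and 5.02 to 5.32 in air livers), and endothelial markers of -0.29 (5.34 to 5.87 in PH3 and 5.82 to 6.09 in air livers), with none of 8 called in either list. Abcc9, the receptor subunit that pairs with Kcnj8, differed by -0.48 ± 0.48 (padj = 0.719). Kcnk5 in liver differed by -0.47 ± 0.37 at 3 h and -0.79 ± 0.37 at 24 h, neither called. A test of the difference between times, added after the calls were seen, gave Kcnj8 a padj of 0.0265 in kidney and 0.0525 in liver, where it called 1.75% of all genes in kidney and 0.476% in liver.

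In lung Kcnj8 was not called at 3 h (5.36, 5.17, 5.54 and 5.27 in PH3 rats, against 4.62, 4.90, 5.23 and 5.12 in air rats, 0.36 ± 0.22, padj = 0.314). Its differences at 3 h were thus -1.55 in liver, -0.73 in kidney, -0.34 in heart and 0.36 in lung, with calls in liver and kidney. The difference between these tissues was not tested. In brain its level was under 5.

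**Figure D4:**
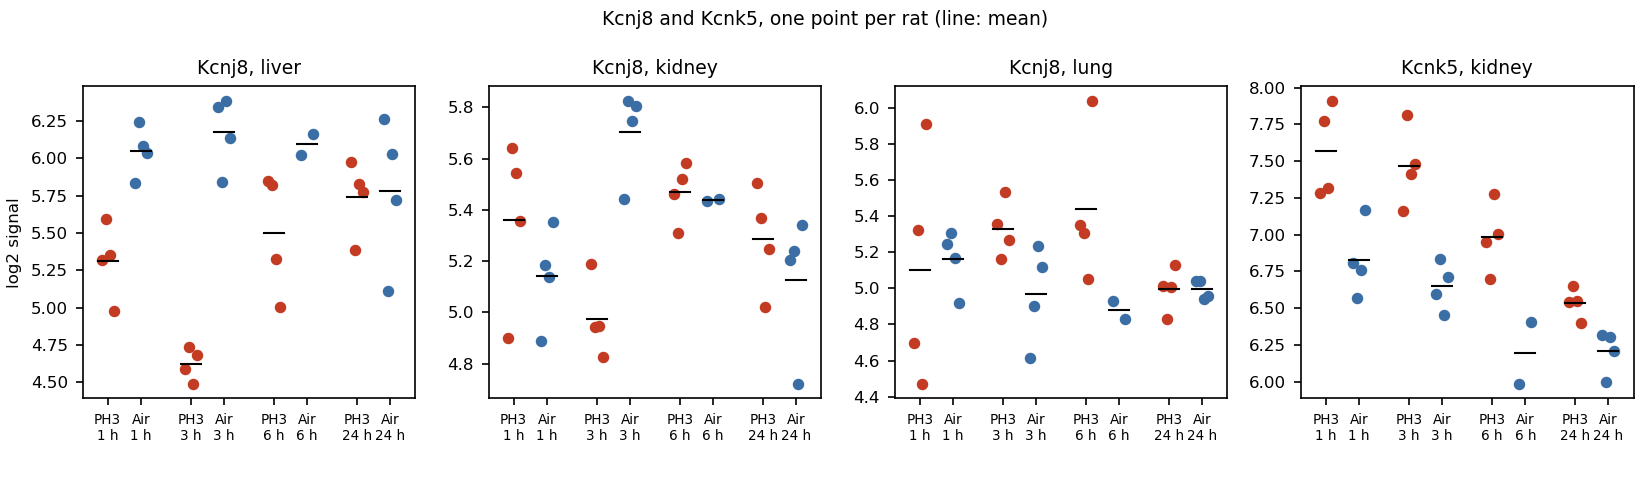
Log2 signal of Kcnj8 in liver, kidney and lung and of Kcnk5 in kidney, one point per rat with PH3 left of air at 1, 3, 6 and 24 h and a line at the mean. Liver Kcnj8 at 3 h lies between 4.49 and 4.73 in PH3 rats and between 5.84 and 6.39 in air rats, and every PH3 kidney is above the air kidneys of its time for Kcnk5. Kcnk5 was called in kidney at 1 and 3 h only, and at 6 h there are 2 air kidneys.

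The 250 bases upstream of the start of Kcnj8 and Kcnk5, the genes called in 2 comparisons each outside lung, are shown because one fell and one rose in the same kidneys at 3 h. They are RefSeq sequences of the rat assembly GRCr8, written 5' to 3' on the strand of the gene, and capitals mark the GC box, GGGCGG or its reverse complement CCGCCC.
Kcnj8, chr4:177246549-177246798, minus strand: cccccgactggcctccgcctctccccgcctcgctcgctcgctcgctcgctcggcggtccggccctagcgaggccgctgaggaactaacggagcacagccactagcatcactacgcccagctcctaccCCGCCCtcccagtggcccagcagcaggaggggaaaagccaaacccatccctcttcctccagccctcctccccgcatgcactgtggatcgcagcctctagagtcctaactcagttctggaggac
Kcnk5, chr15:4171375-4171624, plus strand: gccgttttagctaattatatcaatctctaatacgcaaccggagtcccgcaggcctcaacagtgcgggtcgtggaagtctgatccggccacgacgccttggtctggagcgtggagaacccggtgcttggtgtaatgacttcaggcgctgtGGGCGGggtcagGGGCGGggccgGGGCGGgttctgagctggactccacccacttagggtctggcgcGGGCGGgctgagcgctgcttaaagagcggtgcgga
Kcnk5 held 4 GC boxes and Kcnj8 held 1, a motif found in 30.5% of 33469 rat promoters of this length. Neither window held a cyclic AMP response element (TGACGTCA, 1.59% of promoters), an E-box (CACGTG, 5.59%), a D-box (TTATGNAA, 3.28%), an AP-1 site (TGANTCA, 6.34%), a glucocorticoid receptor core (TGTTCT, 17.5%) or a ROR and REV-ERB core (AGGTCA, 14.06%), each searched on both strands. Their GC content was 66.8% for Kcnj8 and 62.8% for Kcnk5, against a median of 51.2% over all promoters.

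In lung 8 of 17 channel genes were called at 1 or more times, where 15.4% of all genes were. At 3 h 3 were called higher and 5 lower, where 5.84% of all genes were called higher and 5.76% lower, and at 1 h 0 were higher and 1 lower, where 2.18% were higher and 3.62% lower. Among genes over 5, 21.1% were called at 1 or more times. No lung channel gene was called at 6 or 24 h, but at 6 h Scn3b was with dim genes left out (padj = 0.0334) and Scn3b and Scn7a were with pooled air (padj = 4.1e-05 and 0.00628).

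Scnn1a, Kcne3 and Kcnk1 rose. Scnn1a, the alpha subunit of the epithelial sodium channel that draws fluid out of the air space, read 7.19, 7.22, 7.74 and 7.43 in PH3 lungs at 3 h, against 6.71, 6.65, 6.69 and 6.34 in air lungs. The groups did not overlap (0.80 ± 0.24, padj = 0.0323), and its other probe set gave 0.64. Without the air lung that held skeletal muscle transcripts (Rat733) and the PH3 lung at 1 h with hepatocyte transcripts, padj was 0.0528, with pooled air it was 0.0624, and without Rat730, Rat731, Rat732, Rat733 or Rat739 in turn it ran from 0.0530 to 0.118. The beta and gamma subunits Scnn1b and Scnn1g, named after their values were seen, differed by 0.21 and -0.17.

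Kcne3, a partner that keeps Kcnq1 channels open in epithelia, read 6.07, 6.58, 6.51 and 6.55 in PH3 lungs at 3 h, against 5.43, 5.57, 5.30 and 5.81 in air lungs (0.90 ± 0.24, padj = 0.0137). Kcnk1 read 6.65, 6.79, 7.23 and 7.04 in PH3 lungs, against 6.19, 5.85, 6.52 and 5.92 in air lungs (0.81 ± 0.15, padj = 0.000584). Neither gene overlapped between groups at 3 h. Kcnk1 was also apart at 1 h, at 6.67, 6.60, 6.88 and 7.18 in PH3 lungs and 6.47, 6.36, 6.24 and 6.36 in air lungs (0.47 ± 0.15, padj = 0.0554), and differed by -0.04 and 0.04 at 6 and 24 h. Kcnq1 itself, named after its values were seen, differed by 0.19 at 3 h (padj = 0.337).

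Of the partner subunits, Kcne4 and Cacnb2 fell. Kcne4, a partner that silences Kcnq1 and other potassium channels, read 5.26, 4.99, 4.89 and 4.97 in PH3 lungs at 3 h, against 5.62, 5.45, 5.67 and 5.59 in air lungs (-0.55 ± 0.11, padj = 0.00151). Cacnb2 read 5.72, 5.86, 5.79 and 5.91 in PH3 lungs, against 6.47, 6.39, 6.55 and 6.46 in air lungs (-0.65 ± 0.10, padj = 7.3e-05). Both groups of Cacnb2 were narrow and lay apart, but its other probe set, at 3.38 in PH3 and 3.41 in air lungs, differed by -0.03.

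Kcns3 was called at both early times. At 1 h it read 7.18, 7.73, 7.56 and 7.08 in PH3 lungs, against 7.82, 8.14, 8.01 and 7.99 in air lungs (-0.61 ± 0.13, padj = 0.00375). At 3 h it read 7.71, 7.51, 7.54 and 7.75 in PH3 lungs, against 8.05, 7.87, 8.22 and 8.11 in air lungs (-0.43 ± 0.13, padj = 0.0268). All PH3 lungs lay below all air lungs at both times, and at 6 and 24 h the differences were 0.09 and 0.13. With only the 2 groups in the fit padj at 1 h was 0.112, and without Rat729, Rat730, Rat732, Rat738 or Rat739 in turn padj at 3 h ran from 0.0540 to 0.0810.

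The sodium channel genes Scn7a and Scn3b fell too. Scn7a read 9.41, 9.32, 9.12 and 8.99 in PH3 lungs at 3 h, against 9.46, 9.68, 10.05 and 10.24 in air lungs (-0.65 ± 0.19, padj = 0.0274), and its highest PH3 rat lay just under the lowest air rat. Scn3b, a beta subunit, read 9.46, 9.38, 9.14 and 9.16 in PH3 lungs, against 9.67, 9.78, 10.05 and 10.06 in air lungs (-0.61 ± 0.16, padj = 0.0117), and its other probe set gave -0.66. At 6 h the differences were larger and not called: Scn7a read 9.51, 9.33, 8.76 and 8.46 in PH3 lungs, against 9.99 and 9.86 in air lungs (-0.91, padj = 0.127), and Scn3b 9.08, 8.95, 8.25 and 8.45 in PH3 lungs, against 9.70 and 9.46 in air lungs (-0.90, padj = 0.0587). PH3 and air lungs did not overlap at 6 h for either gene, and by 24 h the differences were -0.10 and -0.27. Scn7a at 3 h was not called without Rat730, Rat731, Rat738 or Rat739 in turn (padj from 0.0744 to 0.107).

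Marker lists moved beside these values. At 3 h macrophage markers were higher for 5 and lower for 1 of 9 genes, with list means of 7.26 to 7.36 in PH3 and 6.96 to 7.24 in air lungs, and alveolar markers higher for 2 of 8. Endothelial markers were higher for 1 and lower for 2 of 8, and pericyte and smooth muscle markers higher for 1 and lower for 1 of 8. At 1 h endothelial markers were higher for 2 and lower for 2 of 8, alveolar markers lower for 1 of 8 and red cell markers higher for 1 of 2. Skeletal muscle markers at 3 h ran from 3.13 to 7.07 in PH3 and from 3.06 to 8.40 in air lungs. Cardiomyocyte markers at 3 h ran from 5.56 to 7.26 in PH3 and from 5.56 to 7.58 in air lungs. The part of these cells in the lung values was not tested. Without the arrays with transcripts of another organ, 7 of the 8 genes were still called.

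The F test over times, added after these calls were seen, called 6.38% of all genes in lung. Among the 17 channel genes it called Kcne4 (padj = 0.00905), Cacnb2 (padj = 0.0161), Kcns3 (padj = 0.0197) and Kcnk1 (padj = 0.0375). For Kcne4 the differences at 1, 3, 6 and 24 h were -0.29, -0.55, 0.32 and 0.02, and for Cacnb2 -0.08, -0.65, 0.02 and -0.25. For Scnn1a, Kcne3, Scn7a and Scn3b a difference between times was not called.

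**Figure D5:**
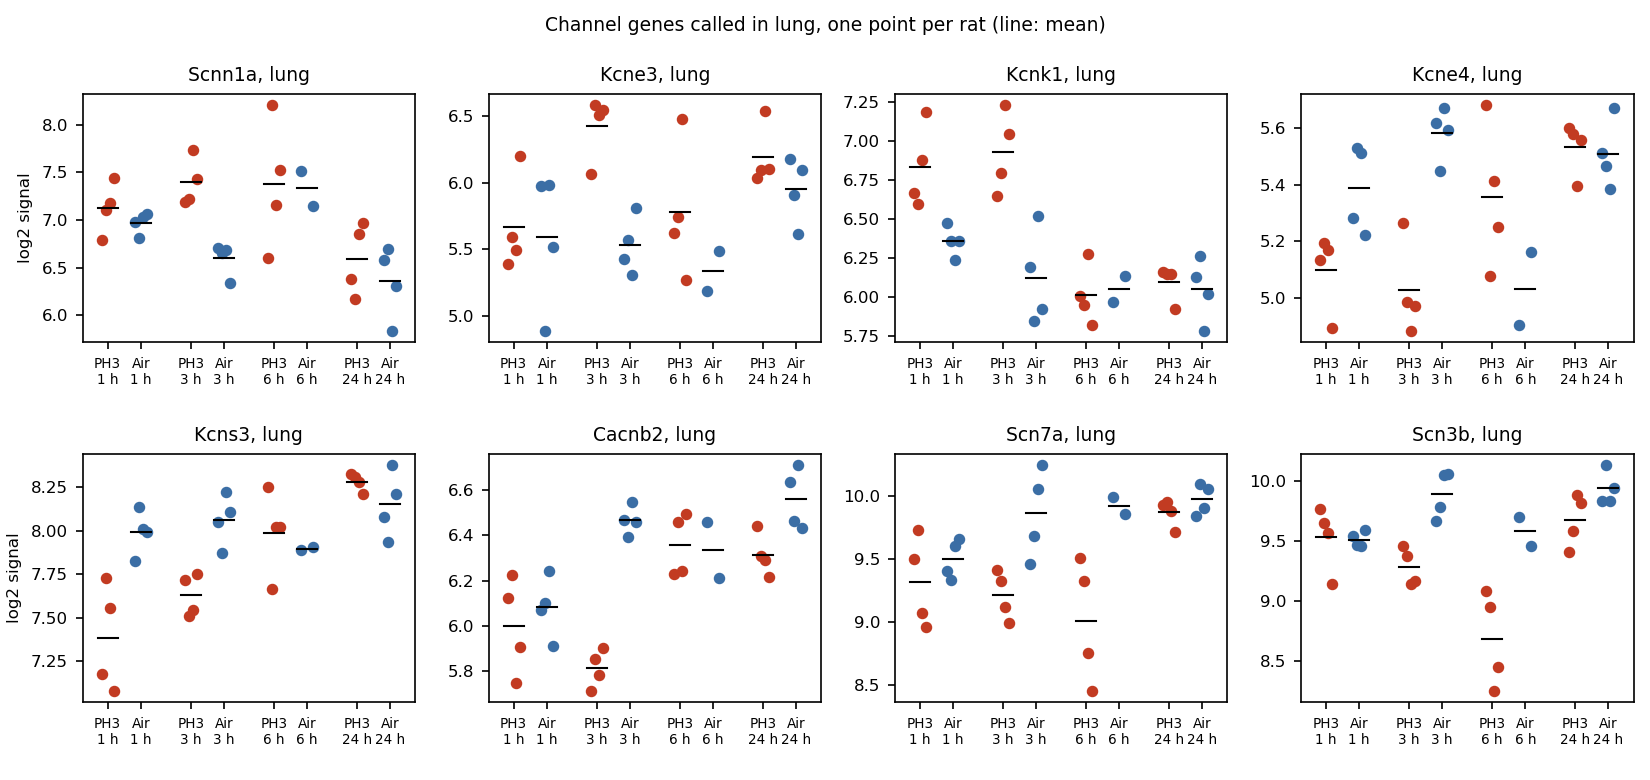
Log2 signal of the 8 channel genes called in lung, one point per rat with PH3 left of air at 1, 3, 6 and 24 h and a line at the mean. At 3 h the PH3 lungs lie above the air lungs for Scnn1a, Kcne3 and Kcnk1. They lie below them for Kcne4, Kcns3, Cacnb2, Scn7a and Scn3b, with no overlap in any of the 8 panels. The genes were drawn because they were called at 3 h, so this separation is no further evidence.

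Of the genes called in lung, the promoters of Kcne3 and Kcne4 are shown, because these partners of Kcnq1 went opposite ways at 3 h. They are again the 250 bases upstream of the start (RefSeq, GRCr8, strand of the gene), with GC boxes and the E-box CACGTG in capitals.
Kcne3, chr1:163935785-163936034, plus strand: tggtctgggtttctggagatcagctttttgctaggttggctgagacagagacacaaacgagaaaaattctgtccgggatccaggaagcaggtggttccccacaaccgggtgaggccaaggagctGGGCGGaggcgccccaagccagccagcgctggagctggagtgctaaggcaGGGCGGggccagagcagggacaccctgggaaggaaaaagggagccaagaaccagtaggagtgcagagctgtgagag
Kcne4, chr9:87695798-87696047, plus strand: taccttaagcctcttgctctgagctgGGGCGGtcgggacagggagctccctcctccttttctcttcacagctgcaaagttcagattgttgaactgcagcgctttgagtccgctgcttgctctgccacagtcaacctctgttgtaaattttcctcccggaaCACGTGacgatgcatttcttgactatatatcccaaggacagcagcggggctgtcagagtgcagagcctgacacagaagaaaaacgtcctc
Kcne4 held an E-box that starts 90 bases upstream and 1 GC box, and Kcne3 held 2 GC boxes and none of the other motifs. A match is a description of the letters only. The windows of 5 of the 12 called genes were searched, Scn7a being the fifth with 1 GC box, and the other 7 were Cacnb2, Kcnj11, Kcnj12, Kcnk1, Kcns3, Scn3b and Scnn1a.

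Channel genes under the level of 5 were also called in places, and these were named after their values were seen. In heart at 3 h 3 of 93 such genes were called, 2 lower and 1 higher, where 2.28% of all genes were lower and 1.06% higher: Kcna4, another carrier of the transient outward current (-1.20, padj = 0.0186, and -1.11 with padj = 0.0596 without Rat729), Cacng6, a calcium channel gamma subunit of muscle (-0.88, padj = 0.0384, and -0.75 with padj = 0.105 without it), and Kcnmb4 (0.91, padj = 0.0250, and 0.99 with padj = 0.0397 without it). At 1 h Cacng6 was higher in heart (0.96, padj = 0.0398). In lung 6 of 98 were called at 3 h, where 5.84% of all genes were called higher and 5.76% lower, among them Kcnip3 (1.19, padj = 5.0e-06) and Kcnmb4 (1.24, padj = 0.00234), and 3 of 98 at 1 h, where 2.18% were higher and 3.62% lower, among them Kcnk5 (0.58, padj = 0.00474). In kidney Kcne4 was higher at 1 h (0.73, padj = 0.00396) and Kcnh1 at 3 h (0.74, padj = 0.00596), and in liver Cacnb1 and Kcnh1 at 3 h (0.75 and 1.03).

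Genes that work beside the channels were read from lists. Of 31 measured genes of calcium handling, pumps and exchangers, 0 were called in heart at 3 h (25 of 31 negative, median -0.17), and 1 at 6 h, Fxyd6, a regulator of the sodium pump (-0.91, padj = 0.0249). Of 26 other cation channels and partners, 2 were called in heart at 3 h, both lower, where 2.28% of all genes were (18 of 26 negative, median -0.12). They were Gja1, the main gap junction protein of ventricle (11.002 ± 0.306 in PH3 and 11.845 ± 0.1499 in air hearts, -0.84, padj = 0.000151), and Hcn2, a pacemaker channel (-1.01, padj = 0.0188). Without Rat729 Gja1 was at -0.73 (padj = 0.000895) and Hcn2 at -0.92 (padj = 0.0706). The counts of negative genes in both lists include the array of Rat729. Over all genes 7199 of 13438 were negative in heart at 3 h, and 4982 of 7942 genes over 5. In brain 0 of the 31 and 0 of the 26 were called at the 4 times.

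Of 31 measured regulators of channels, 4 were called in heart at 3 h, 2 higher and 2 lower, against 1.06% and 2.28% of all genes. At that time 23 of 31 were negative, 17 had an unadjusted p under 0.05 and the median was -0.28. Of all genes 18.0% had an unadjusted p under 0.05, and 23.9% of genes over 5. Negative were 7199 of 13438 genes, and 4982 of 7942 genes over 5. These list counts include the array of Rat729, and counts without it are not given. Sgk1, a kinase that raises sodium channel surface levels, was higher at 1 h (1.71, padj = 0.00346) and 3 h (1.22, padj = 0.0282), as was Rcan1, an inhibitor of calcineurin, at 3 h (0.67, padj = 0.00482). Nfatc3, a calcineurin target, and Irx4, a ventricular transcription factor, were lower at 3 h (-0.45, padj = 0.0241, and -0.82, padj = 0.0275). Without Rat729 Sgk1 and Rcan1 were still called, and Nfatc3 and Irx4 were not (padj = 0.0775 and 0.0911). In brain Sgk1 was higher at 1 h (1.31, padj = 0.0404) and 3 h (1.41, padj = 0.00883), and Klf15, a transcription factor that regulates Kcnip2 in mouse heart, was higher at 3 h (0.60, padj = 0.00663).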

How the data were processed

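RNA from 5 solid tissues and blood of 33 rats was hybridized to 174 Affymetrix rat arrays (1 colour, only perfect-match probes). The 150 arrays of solid tissues were used, and blood was not tested here. Deposited are log2 values, 1 per probe set and array, made by the authors with RMA and Partek, per the submitters' processing notes, which name no version. The sources used here do not give whether all tissues shared 1 normalization, and background correction could not be redone. Values ran from 1.74 to 14.1 over 31139 probe sets, of which 97 are controls, 19063 list 1 gene, 572 several and 11407 none. The number of arrays sets the precision. Of the 115 channel genes, 80 had 1 probe set.

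A linear model of limma 3.58.1 (R 4.3.3) gave, tissue by tissue, the mean of every exposure and time, and PH3 minus air at the same time was tested with eBayes over all 13438 genes. Differences between times were tested with limma's moderated F, and differences between heart and brain in a joint fit. Gene membership, panels, marker lists and context lists were chosen with earlier results of these data known. In heart and brain the rule for named genes took called members, panel members over 5 and up to 3 with the lowest p where none was called. Elsewhere it took called members only, and of context lists called genes only.

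Other settings changed the scaling (quantiles within a tissue, or medians of arrays), dropped dim genes (below the 40th percentile), averaged probe sets, weighted arrays by quality, fitted the 2 groups alone, pooled the air rats of all times, dropped arrays holding another organ's transcripts, set the level over all arrays of a tissue, took the rat as a block for heart minus brain, or left out each rat. Leaving out hearts low in atrial markers and the F tests in kidney, liver and lung were chosen after seeing the data. Heart and brain came from the same rats by the labels. Deviations of the same rat from its group means correlated across genes with a median r of 0.0389 (30 rats, -0.291 to 0.267). The fits were first tested on simulated data holding known changes. RNA integrity was compared by exact permutation tests (python 3.11.15, scipy 1.17.1), and figures were drawn with matplotlib 3.10.9.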

Additional observations from a re-analysis of the deposited data

Results flagged for a closer look

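Single rats stood far from the rest of their group in 6 of the 66 groups of 4 looked at, where chance alone gives about 1 in 20. In lung at 3 h these were PH3 Rat728 for Kcne3 at 6.07, below the other PH3 lungs, and air Rat739 for Scnn1a at 6.34, below the other air lungs. In brain they were PH3 Rat729 for Kcnd3 at 3 h (6.99, below the others), air Rat727 for Kcnip3 at 1 h (4.004, below the others) and air Rat751 for Kcnk12 at 24 h (4.78, below the others). Among the heart groups looked at it was air Rat744 for Cacna1c at 24 h (7.92, above the others). The 66 did not cover every group of the channel genes. The heart array of Rat729 also lay far below the other PH3 hearts for Kcnq1 at 3 h, as given above.

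The effect of PH3 differed between the 4 times for 5 channel genes outside heart and brain, by limma's F test over all genes. They were 1 of 15 in kidney, 0 of 3 in liver and 4 of 17 in lung. The test, added there after the calls were seen, called 1.75%, 0.476% and 6.38% of all genes in these tissues. The adjusted p was 0.0265 for Kcnj8 in kidney, and in lung 0.0161 for Cacnb2, 0.00905 for Kcne4, 0.0375 for Kcnk1 and 0.0197 for Kcns3. Over 36 alternative settings and left-out rats each, Kcne4 and Kcns3 were called in all 36, Cacnb2 in 35 (padj = 0.619 with the mean of its probe sets), Kcnj8 in 30 and Kcnk1 in 20.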

How the results depend on the processing

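The count of heart channel genes called at 3 h, 1 as reported, was 0 with array median centring, the mean of probe sets, array quality weights, only the 2 groups, without arrays with transcripts of another organ and without hearts low in atrial markers, and 5 with pooled air (Kcnd2, Kcng2, Kcnh2, Kcnj11 and Kcnq1). Leaving out each rat gave 0 to 5, with 5 without Rat728 (Cacnb2, Kcnd2, Kcnd3, Kcnj11 and Kcnj8) and 0 without Rat729, Rat730, Rat732, Rat733, Rat738 or Rat739. At 6 h the count of 0 became 1 with array quality weights (Kcnj3, padj = 0.00880) and 4 with pooled air. In brain at 3 h, leaving out each rat gave 0 to 1 (Cacna1h without Rat732). The heart and brain difference of 0 became 1 at 3 h with pooled air (Kcnj11), and at 6 h 1 with array quality weights (Kcnj3) and 1 with pooled air (Kcnd2); with the replicate block of the rat it was 0 at each time. In lung at 1 h 1 became 5 with pooled air (Cacnb2, Kcne4, Kcnk1, Kcns3 and Scn7a), 2 with dim genes left out and 0 with only the 2 groups, and at 6 h 0 became 2 with pooled air and 1 with dim genes left out. In kidney 3 became 7 with pooled air, and in liver 1 became 2 without arrays with transcripts of another organ (Scnm1) and 1 to 2 when leaving out each rat (2 without Rat741). Of the 15 called differences, 7 were called in every run. Over 240 runs 202 kept the call, 38 lost it and 0 changed sign. Calls were lost in 12 of 17 runs for Kcnj11, 7 of 15 for Kcnj12, 7 of 16 for Scnn1a, 5 of 16 for Kcns3 at 3 h, 4 of 16 for Scn7a and 1 of 16 for Kcnj8 in kidney, Kcnk5 at 1 h and Kcns3 at 1 h. The cause was not tested. With 2 air rats at 6 h, errors are larger there.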
